A study of Homo sapiens with 4 samples.

Results

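The nuclear-encoded genes of the mitochondrial respiratory chain and ATP synthase were examined in SK-N-SH cells, an established human neuroblastoma line. Members were chosen by gene symbol, namely every NDUFA, NDUFB, NDUFC, NDUFS, NDUFV, SDH, UQCR, COX4 to COX8 or ATP5 symbol of the count table except those that end in P and digits, the usual ending of a pseudogene name. The rule used no measured value. It found 89 gene identifiers with 85 symbols among the 57820 genes of the table, of which 39 belonged to complex I, 5 to complex II, 9 to complex III, 17 to complex IV and 19 to complex V. NDUFA7, NDUFB8, SDHD and UQCR11 each had a second identifier, which overlapped the first in the annotation.

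The study compared 2 groups, each with 2 libraries. The vector control cells carried a lentivirus without an insert, and the OE cells carried a lentivirus with the long noncoding RNA RP5-998N21.4 under the EF1a promoter. All libraries therefore came from transduced SK-N-SH cells of the same line. By title the controls are WT, but the treatment recorded for them is the empty vector, which was followed. Whether the cells were a pool or a clone, and whether replicates came from separate cultures, is not given in the sources used here, so p-values measure the spread between these libraries, which may be technical.

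The respiratory chain passes electrons from NADH through complex I, or from succinate through complex II, to complex III and then to oxygen at complex IV, and complexes I, III and IV pump protons across the inner mitochondrial membrane. Complex V, the ATP synthase, uses the proton gradient to make ATP. Complex II is encoded by nuclear genes alone, whereas the other complexes combine nuclear-encoded subunits with a small core of proteins encoded by mitochondrial DNA. Many nuclear subunits are short, abundant proteins whose mRNAs have left processed pseudogenes, intronless copies of a spliced mRNA, elsewhere in the genome.

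The libraries held 23785164 and 24098041 counts in the control libraries and 24601728 and 28307591 in OE. Members took 0.143% and 0.170% of the counts in the control libraries and 0.169% and 0.164% in OE, with Wilson 95% intervals that cover counting error only (0.142% to 0.145% for the lowest). RP5-998N21.4 itself had 32 and 33 counts in the control libraries and 2407 and 2808 in OE (log2 fold change 6.11 ± 0.11 SE, edgeR adjusted p = 0.0109). Of 15 neuroblastoma markers, 14 were tested, 13 with a log2 fold change above 0, and TH had 0 counts in every library. The summed level of the marker list was 883 and 876 CPM (counts per 1e6 TMM-scaled counts) in the vector control against 1385 and 1449 in OE, and CHGA passed the edgeR test. None of 8 markers of other tissues reached a mean of 1 CPM, and PTPRC, ALB, CDH5, CD3E, HBB and MYH7 had at most 4 counts in any library. The part of the marker shift in the values below was not tested. In bulk libraries, fewer cells of a kind and less RNA per cell cannot be told apart.

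For many members the table assigned more counts to pseudogenes or other copies than to the gene itself. Copies were sought as genes that the table or a GENCODE annotation on GRCh37 names after a member, with the intronless gene UQCRHL added for UQCRH. This gave 190 copies, 171 of them with a single exon in their leading transcript. 78 copies had counts, and 41 members had at least 1 counted copy. In 18 of these 41 members the copies held more counts than the member, and in 10 of them over 10 times as many. Together the copies took 0.148% and 0.155% of the counts in the control libraries and 0.163% and 0.150% in OE, which was close to the share of the members themselves.

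NDUFV2, an iron-sulfur subunit of the NADH-binding end of complex I, had the highest ratio of copy to member counts. It had 38 and 29 counts in the control libraries and 33 and 30 in OE, while NDUFV2P1 had 2297 and 2511, and 2296 and 2882. UQCRH, the hinge protein of complex III, had 157 and 186 counts in the control libraries and 78 and 84 in OE. Its copies, led by UQCRHL, which is annotated as a protein-coding gene, held 5526 and 5793 counts, and 6555 and 6855. COX6A1, a nuclear subunit of complex IV, had 237 and 330, then 445 and 396 counts against 5414 and 5864, then 6480 and 6999 for COX6A1P2. In each of the 3 genes the ratio of copy to member was above 10 in every library.

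Members and copies are close in sequence. Over the 10 members with more than 10 times as many counts in copies, the aligned part of the member's coding sequence was 93.2% (ATP5C1) to 98.8% (COX6A1) identical to the leading copy. The longest stretch without a difference was 243 bases in NDUFV2, 207 in COX6A1 and 157 in UQCRH. Among the 10 members it was shortest in COX7A2, at 50 bases. The windows below run across an exon junction of the member and the matching stretch of the copy, 5′ to 3′ on the coding strand, and are shown because the member is split by an intron there and the copy is not. Capitals mark the bases that differ between member and copy.
NDUFV2: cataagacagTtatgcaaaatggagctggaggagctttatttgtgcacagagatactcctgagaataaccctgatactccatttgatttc
NDUFV2P1: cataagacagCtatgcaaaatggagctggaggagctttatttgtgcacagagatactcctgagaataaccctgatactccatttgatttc
UQCRH: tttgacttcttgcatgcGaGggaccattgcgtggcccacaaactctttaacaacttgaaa
UQCRHL: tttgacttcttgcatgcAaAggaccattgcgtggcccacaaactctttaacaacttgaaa
COX6A1: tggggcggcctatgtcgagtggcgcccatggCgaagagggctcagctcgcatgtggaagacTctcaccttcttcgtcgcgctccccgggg
COX6A1P2: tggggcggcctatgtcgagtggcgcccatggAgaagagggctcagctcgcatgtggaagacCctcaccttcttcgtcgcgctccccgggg
COX7A2: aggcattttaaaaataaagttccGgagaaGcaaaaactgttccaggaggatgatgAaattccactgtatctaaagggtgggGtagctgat
COX7A2P2: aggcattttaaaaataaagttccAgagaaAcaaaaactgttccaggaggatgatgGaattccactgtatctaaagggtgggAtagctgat
NDUFA4: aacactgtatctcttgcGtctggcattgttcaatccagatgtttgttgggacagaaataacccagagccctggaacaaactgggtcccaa
NDUFA4P1: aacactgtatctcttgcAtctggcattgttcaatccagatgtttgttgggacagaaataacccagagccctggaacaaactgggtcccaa

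On GRCh37, the NDUFV2 window lies on the plus strand in 2 blocks, chr18:9117857-9117901 and chr18:9119324-9119368, separated by an intron of 1422 bases, and the copy lies unbroken on the minus strand at chr19:53727809-53727898. The UQCRH window lies on the plus strand at chr1:46775959-46775988 and chr1:46782224-46782253, and UQCRHL on the minus strand at chr1:16133872-16133931. The COX6A1 window lies on the plus strand at chr12:120875988-120876032 and chr12:120876182-120876226, on both sides of an intron of 149 bases. Its copy lies on the plus strand at chr6:37012694-37012783. The COX7A2 window lies on the minus strand at chr6:75950892-75950936 and chr6:75950057-75950101, and its copy on the plus strand at chr4:97824015-97824104. The NDUFA4 window lies on the minus strand at chr7:10978435-10978479 and chr7:10977730-10977774, and its copy on the plus strand at chr1:108047911-108048000. The windows differed at 1 base for NDUFV2 and NDUFA4, at 2 for UQCRH and COX6A1 and at 4 for COX7A2. Whether the counts of a copy came from its own RNA or from the mRNA of the member cannot be told apart from the table.

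**Figure D1:**
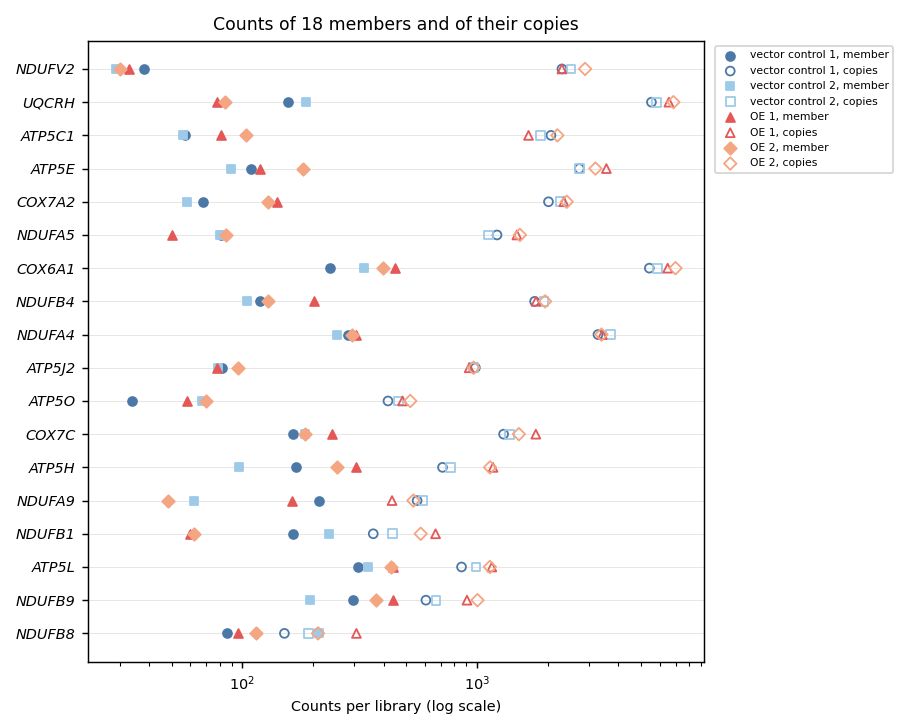
Counts per library (x axis, log scale) of the 18 members whose copies held more counts than the member, filled symbols for the member and open symbols for its copies. For NDUFV2, UQCRH, COX6A1 and NDUFA4 the open symbols stand more than 10 times to the right of the filled ones in every library.

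The fold change of these members depended on whether the copies were counted with them. UQCRH alone was lower in OE, at 7.33 ± 0.83 CPM against 3.01 ± 0.14 CPM for the control and OE means (each SD, n = 2) (log2 fold change -1.28 ± 0.18 SE). With its copies added it was 0.02 ± 0.08 on the same scale, and the groups overlapped. COX7A2, the widely expressed isoform of a complex IV subunit, had 68 and 58 counts in the control libraries and 141 and 128 in OE, a log2 fold change of 0.90 ± 0.22, which became -0.01 ± 0.11 with COX7A2P2 and a minor copy added. NDUFB1, an accessory subunit of the complex I membrane arm, moved from -1.91 ± 0.25 to -0.01 ± 0.21 when NDUFB1P1 and a minor copy were added. ATP5C1, the gamma subunit of the rotating stalk of ATP synthase, moved from 0.50 ± 0.19 to -0.21 ± 0.12. Among the 18 members these 4 moved the most when the copies were added. In all 18 the copies held most of the summed counts (98.0% for UQCRH, 79.6% for NDUFB1), so a summed value mainly follows the copies. How far it bears on a change of the member depends on the source of the copy counts, which cannot be told apart here.

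Over the 18 members the median absolute log2 fold change was 0.43 alone and 0.13 with copies. The median absolute log2 difference between the vector control replicates was 0.27 alone and 0.13 with copies, and between the OE replicates 0.34 and 0.19. No summed member had an edgeR adjusted p under 0.05, the level that 0.595% of the genes in that fit reached. 3 of the 18 had an unadjusted p under 0.05, a level that 20.8% of the genes reached: ATP5H (0.51 ± 0.14) and NDUFB9 (0.42 ± 0.11) were higher and NDUFA9 (-0.46 ± 0.16) was lower.

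**Figure D2:**
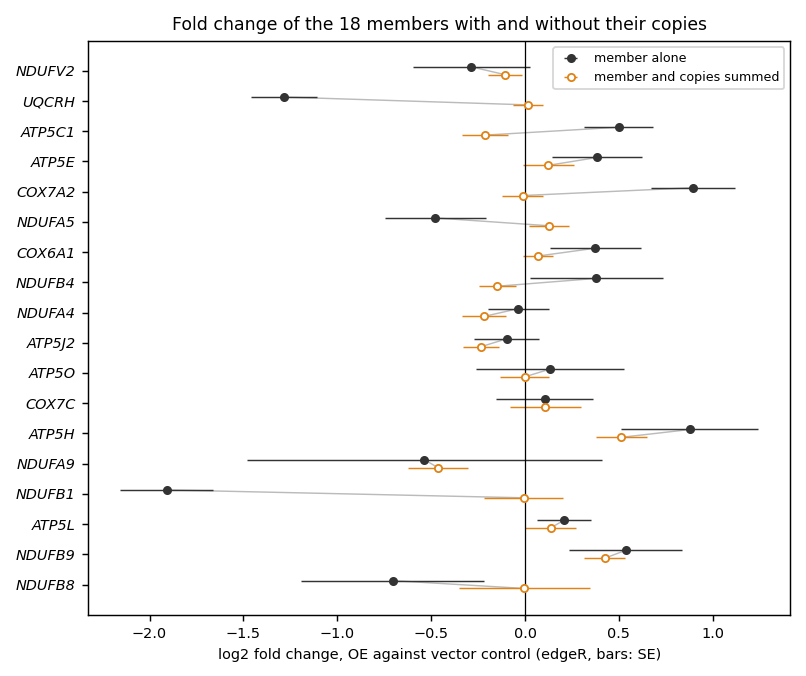
Log2 fold change of OE against the vector control (x axis, edgeR, bars give the SE) of the 18 members, alone (filled) and with the counts of their copies added (open). UQCRH, NDUFB1 and COX7A2 lie at -1.28, -1.91 and 0.90 alone and within 0.02 of 0 with their copies.

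Taken over all complexes, the members had a median absolute log2 fold change of 0.23, against 0.30 over all tested genes. Of the 89 members 79 were tested, and 0 had an edgeR adjusted p under 0.05, against 0.594% of the 20528 tested genes (0.283% higher and 0.312% lower in OE). Their smallest adjusted p was 0.0682. The median log2 fold change was 0.003 over the members and 0.007 over all tested genes. 55 of the 79 members (69.6%) lay within 0.5 of 0 on the log2 scale, as did 69.2% of all tested genes.

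Counted by direction, 4 members (5.06%) had an unadjusted p under 0.05 and a higher level in OE, where 10.1% of all tested genes did, and 9 members (11.4%) a lower level, where 10.7% did. In CPM, each OE library was above each control library in 18 members (22.8%, against 27.8% of all tested genes) and below them in 19 (24.1%, against 27.6%). An exact two-sided permutation test of 2 against 2 libraries cannot give a p below 0.333. DESeq2, the tool that the study names, was run here with its Wald test and gave a different number. With the cut-offs of the study (adjusted p below 0.01, LogFC beyond 0.5 either way, taken here as log2) it called 7 members (8.86%). Of all tested genes it called 8.77%. At an adjusted p below 0.05 alone it called 13 members, 4 of them higher in OE and 9 lower, where it called 19.8% of the genes, 9.32% higher and 10.5% lower. At the cut-offs of the study edgeR called 0 members and 0% of the genes. limma-voom called 1 member at an adjusted p below 0.05, the second identifier of UQCR11, where it called 1.46% of the genes.

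The 7 members past the study's thresholds in DESeq2 were SDHD and NDUFB7, which were higher in OE (4.35% of all genes were called higher), and UQCRH, NDUFB1, COX5A, SDHA and the second identifier of UQCR11, which were lower (4.42% of all genes). UQCRH, NDUFB1, SDHA, COX5A and SDHD have counted copies, which held 98.0%, 79.6%, 49.6%, 30.5% and 4.64% of the counts of member and copies together. For SDHD, SDHA and NDUFB1 the leading transcript also differed between libraries, as described below. COX5A and NDUFB7 had over 90% of their counts in 1 transcript.

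**Figure D3:**
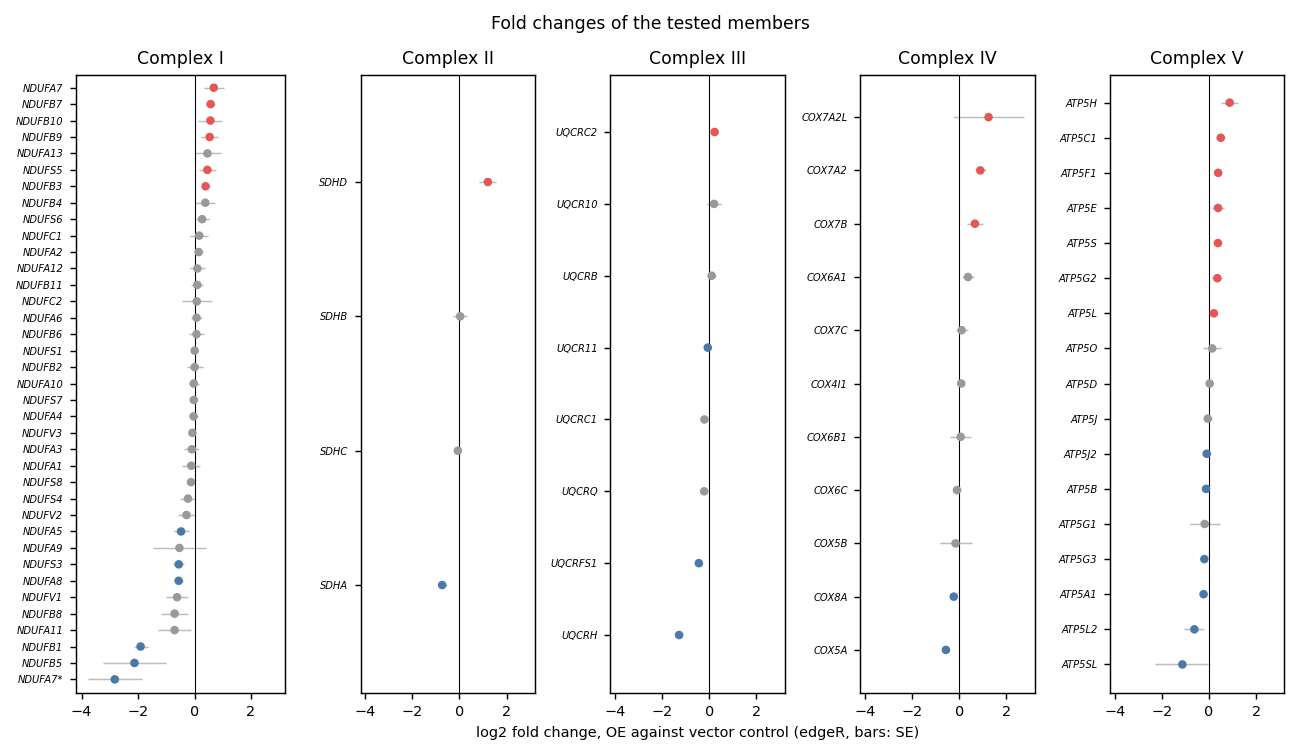
Log2 fold change of OE against the vector control (x axis, edgeR, bars give the SE) of tested members with counts in OE, by complex. Red points mark genes with both OE libraries above both vector control libraries and blue points those with both below, grey points overlap, and NDUFA7* is the second identifier of NDUFA7; most points lie within 0.5 of 0.

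Complex I, the NADH dehydrogenase, had 39 members and 38 tested. Of these, 19 lay above 0 on the log2 scale and 19 below, with a median of -0.01. The summed level was 530 and 621 CPM in the vector control and 598 and 510 CPM in OE, so the groups overlapped. The 2 members with the highest level per kilobase of transcript were NDUFB11 and NDUFB10, both accessory subunits of the membrane arm.

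NDUFS1, the largest iron-sulfur subunit, had 1556 and 1610 counts in the control libraries and 1720 and 1940 in OE and was among the most even members (log2 fold change 0.003 ± 0.082). NDUFV1, which binds NADH, had 554 and 785 counts against 608 and 377, and its groups overlapped. Of the subunits that carry electrons towards ubiquinone, NDUFS7 had 400 and 439 counts against 461 and 486, and NDUFS8 had 594 and 571 against 613 and 613. The groups overlapped for both genes in CPM. NDUFS3, of the same module, had 233 and 224 counts in the control libraries and 144 and 217 in OE, with both OE libraries below both controls (log2 fold change -0.56 ± 0.19, edgeR adjusted p = 0.235).

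NDUFB7 had 305 and 379 counts in the control libraries and 548 and 621 in OE. This membrane-arm subunit stood at 14.6 ± 2.1 CPM in the vector control and 21.7 ± 0.3 CPM in OE (log2 fold change 0.57 ± 0.15, edgeR adjusted p = 0.174, DESeq2 adjusted p = 0.00723). NDUFB3, another membrane-arm subunit, had 140 and 152 counts against 202 and 240 (0.39 ± 0.14). NDUFA8, an accessory subunit of the membrane arm, had 397 and 341 counts against 245 and 336, and its log2 fold change was -0.56 ± 0.17. In none of the 3 genes did the groups overlap, and none passed the edgeR test.

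NDUFB1 had 165 and 234 counts in the control libraries and 60 and 62 in OE, a mean of 8.52 ± 2.03 CPM against 2.27 ± 0.18 CPM (edgeR adjusted p = 0.0780). 3 of its transcripts had counts. ENST00000553666.1 had 125 and 153 counts in the control libraries and 0 and 0 in OE, ENST00000556555.1 had 40 and 81, then 18 and 21, and ENST00000553514.1 had 0 and 0, then 42 and 41. NDUFB1P1, with 359 and 437 counts in the control libraries and 665 and 575 in OE, went the other way.

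NDUFB5, also of the membrane arm, had 908 and 921 counts in the control libraries, 42 in the first OE library and 468 in the second. Its log2 fold change was -2.13 ± 1.12, and -1.27 without the first OE library. Without the second OE library it was -4.54 and passed the edgeR threshold, as 0.585% of the genes did in that fit. The second identifier of NDUFA7, which overlaps RPS28 and CD320 in the annotation, had 57 and 166 counts against 28 and 7 (-2.82 ± 0.95, edgeR adjusted p = 0.229). Its log2 fold change was -3.40 and -1.87 without the first and the second vector control library, and -4.27 and -2.09 without the first and the second OE library. The first identifier had 19 and 21 against 27 and 48. The 2 identifiers thus differed in sign.

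Complex II, succinate dehydrogenase, links the chain to the tricarboxylic acid cycle. SDHD, a membrane anchor, had 617 and 1221 counts in the control libraries and 2295 and 2589 in OE, a mean of 39.2 ± 18.0 CPM against 90.5 ± 1.4 CPM (log2 fold change 1.21 ± 0.37, edgeR adjusted p = 0.202, DESeq2 adjusted p = 0.00613). SDHA, the flavoprotein that oxidises succinate, had 579 and 489 counts against 303 and 444 (-0.74 ± 0.19, edgeR adjusted p = 0.164, DESeq2 adjusted p = 0.00618). The copies of SDHA held 425 and 404 counts against 457 and 497, and with them added its log2 fold change was -0.37 ± 0.12. SDHD and SDHA went in opposite directions, and the groups overlapped for neither.

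SDHB, the iron-sulfur subunit, had 53 and 80 counts against 63 and 95, and its groups overlapped (0.03 ± 0.31). SDHC, the other membrane anchor, had 2314 and 2419 counts against 2557 and 2635 and was close to even (-0.07 ± 0.10). The summed level of complex II was 153 and 179 CPM in the vector control and 208 and 199 CPM in OE (log2 ratio of the means 0.29), with a median log2 fold change of -0.02 over its 4 tested members. Without SDHD the sum was 127 and 127 CPM against 117 and 110 CPM (log2 ratio -0.17), so the direction of the sum rested on SDHD. The 4 subunits of this complex sit in equal numbers in the enzyme, yet their levels per kilobase differed widely, from 2.89 CPM per kilobase for SDHB to 76.3 for SDHC.

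The transcript that received most counts also differed between libraries for SDHD and SDHA. For SDHD, ENST00000375549.3 had 0 and 740 counts in the control libraries and 2281 and 2575 in OE, while ENST00000530923.1 had 617 and 234, then 4 and 5. For SDHA, ENST00000264932.6 had 0 and 0 counts in the control libraries and 213 and 254 in OE, while ENST00000511810.1 had 443 and 442, then 0 and 79. The leading transcript of SDHD thus differed already between the 2 vector control libraries.

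Complex III, the cytochrome bc1 complex, had 9 tested members with a median log2 fold change of -0.21, 3 above 0 and 6 below. Its summed level was 180 and 196 CPM in the vector control and 161 and 162 CPM in OE, a log2 ratio of the means of -0.22. With the copies added the ratio was -0.10. UQCRFS1, the Rieske iron-sulfur protein, had 1435 and 1667 counts against 1169 and 1470 (66.3 ± 6.6 CPM against 48.7 ± 3.0 CPM, log2 fold change -0.44 ± 0.12, edgeR adjusted p = 0.177). It was the main contributor to the lower sum by level.

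The core proteins UQCRC1 and UQCRC2 went in different directions. UQCRC2 had 436 and 494 counts in the control libraries and 613 and 636 in OE (0.22 ± 0.13) and UQCRC1 had 366 and 500 against 435 and 426 (-0.21 ± 0.21), neither beyond the test. UQCR10 and UQCRQ, small membrane subunits, had the highest levels per kilobase of the complex, and their groups overlapped. UQCR11 had 662 and 659 counts against 649 and 811 under its first identifier (-0.07 ± 0.10). Its second identifier, which spans UQCR11 and the neighbouring MBD3, had 75 and 102 counts in the control libraries and 0 and 0 in OE. Set against 3 counts in each OE library, the limit that a count of 0 allows, this was at least 33.9-fold lower (edgeR adjusted p = 0.0682).

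Complex IV, cytochrome c oxidase, had 17 members, of which 11 were tested. Its summed level was 181 and 296 CPM in the vector control and 312 and 299 CPM in OE. The low first vector control library came from COX7A2L, which had 80 counts there, 2319 in the second vector control library and 3098 and 3442 in OE. COX7A2L is known as an assembly factor that joins complexes III and IV into supercomplexes. Its log2 fold change was 1.25 ± 1.52, and 0.29 without the first vector control library. Without that library the log2 ratio of the summed level of complex IV was 0.05, against 0.36 with all libraries.

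COX8A, the small subunit of complex IV, had the highest level per kilobase of the members with a known transcript length, 134 CPM per kilobase, with 1617 and 1729 counts in the control libraries and 1572 and 1716 in OE (-0.23 ± 0.09, edgeR adjusted p = 0.275). COX5A, which lies on the matrix side, had 350 and 364 counts against 240 and 321 (15.3 ± 0.3 CPM against 10.3 ± 1.1 CPM, -0.56 ± 0.14, edgeR adjusted p = 0.157, DESeq2 adjusted p = 0.00500). Both genes were lower in each OE library than in each control, by amounts that passed the adjusted 0.05 level in DESeq2 and not in edgeR.

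Several complex IV subunits exist as a widely expressed and a tissue-restricted isoform, and the counts separated them. COX4I1 had 1337 and 1420 counts in the control libraries and 1490 and 1905 in OE, whereas COX4I2, the lung isoform, had 0 and 3, then 0 and 0. COX6A1 was counted in every library, and COX6A2, the heart and muscle isoform, in none. COX7A2 had 58 to 141 counts per library, and the muscle isoform COX7A1 had 8 and 10 in the vector control and 4 and 5 in OE.

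COX7B had 80 and 146 counts against 202 and 211 (0.67 ± 0.34), and COX7B2 had 0 in every library. COX6B1 had 38 to 67 counts, and COX6B2, best known from testis, had 4 and 5, then 17 and 0. COX8C, another testis isoform, had 0 and 6, then 9 and 6. A count of 0 (3 counts at most) allows up to 0.126 CPM of all deposited counts in the shallowest library and 0.106 in the deepest. In each pair the widely expressed isoform had the higher counts, and no restricted isoform had enough counts to be tested.

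**Figure D4:**
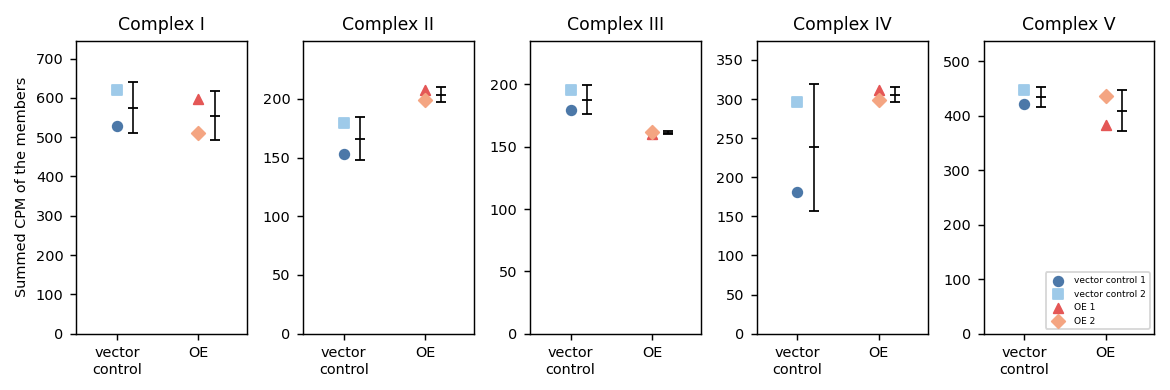
Summed CPM of the members of each complex (y axis, from 0) in the 4 libraries, with the mean and SD of each group of 2 beside the points. OE lies above the control in complex II, where the direction rests on SDHD, and below it in complex III, the groups overlap in complexes I and V, and in complex IV the first vector control library (181 CPM) stands below the other 3.

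Complex V, ATP synthase, had 19 members and 17 tested. The summed level was 422 and 448 CPM in the vector control and 383 and 436 CPM in OE, so the groups overlapped, and the median log2 fold change was 0.03. ATP5B, the catalytic beta subunit, had the highest count of all members with 3243 and 3424 in the vector control and 3147 and 3926 in OE (-0.13 ± 0.08). ATP5D, the delta subunit of the central stalk, had 1412 and 1802 against 1737 and 2040 (0.03 ± 0.15). ATP5A1, the alpha subunit, had 788 and 729 against 633 and 868 (-0.23 ± 0.14). None of the 3 passed the edgeR test.

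ATP5F1, subunit b of the peripheral stalk, had 604 and 671 counts in the control libraries and 919 and 1006 in OE, or 27.2 ± 1.9 CPM against 35.7 ± 1.3 CPM (log2 fold change 0.39 ± 0.11, edgeR adjusted p = 0.179, DESeq2 adjusted p = 0.00663). ATP5H, subunit d of the same stalk, had 169 and 97 counts against 305 and 254 (0.88 ± 0.37), and its copies were higher in OE too, with 712 and 772 against 1168 and 1135. ATP5O, which connects the stalk to the catalytic head, had 34 and 67 against 58 and 70, and its groups overlapped. ATP5F1 and ATP5H thus lay above both controls in both OE libraries, and ATP5O did not.

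The c-ring subunit is encoded by 3 genes that give the same mature protein. ATP5G1 had 171 and 185 counts in the control libraries and 76 and 299 in OE, ATP5G2 had 392 and 439 against 660 and 551 (0.35 ± 0.21), and ATP5G3 had 422 and 456 against 388 and 499 (-0.20 ± 0.13). ATP5G2 lay above the controls, ATP5G3 below them and ATP5G1 on both sides, with none beyond the edgeR test. ATP5I, subunit e, was left out of the test with 7 and 8 counts in the control libraries and 13 and 11 in OE.

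Some symbols that match the rule are not subunits. ATP5SL, known for a role in complex I assembly, had 1196 and 1406 counts in the control libraries, 105 in the first OE library and 1346 in the second (log2 fold change -1.13 ± 1.16, -0.26 without the first OE library and -3.73 without the second). ATP5S, a coupling factor, had 167 and 150 counts against 221 and 255. ATP5L2 had 9 to 16 counts, and the pseudogene ATP5J2LP had none. NDUFA4, counted here under complex I by its name, is now assigned to complex IV. It had 281 and 252 counts against 304 and 293, and NDUFA4P1 had 3271 and 3692 against 3415 and 3384.

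10 members were not tested because their counts were low: ATP5I, ATP5J2LP, COX4I2, COX6A2, COX6B2, COX7A1, COX7B2, COX8C and the second identifiers of NDUFB8 and SDHD. Of these 10, 4 had a count of 0 in every library, namely ATP5J2LP, COX6A2, COX7B2 and the second identifier of SDHD. The second identifier of NDUFB8 had 2 counts in 1 vector control library.

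The table counts transcripts, and the transcript that received most of a gene's counts often changed between libraries. Among the 79 tested members the leading transcript was not the same in all 4 libraries in 26. The share over all tested genes was not counted, so this is not given as a trait of the members. NDUFB5 had 908 counts on ENST00000259037.3 in the first vector control library and 912 on ENST00000493866.1 in the second, with 0 on the other transcript in each. The gene totals of these libraries, 908 and 921, were nevertheless close. NDUFB10 had 6 counts on ENST00000268668.6 in the first vector control library and 631, 676 and 775 in the other 3, and its gene total was 356 there and 797, 864 and 1101 in the others.

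In ATP5G1 and ATP5SL, too, both the leading transcript and the gene total of 1 library differed from the others. ATP5G1 had 171, 185 and 299 counts on ENST00000513347.1 in 3 libraries and 0 in the first OE library, where ENST00000502964.1 had 76. ATP5SL had 11 counts on ENST00000589503.1 in the first OE library and 1193, 1373 and 1259 in the others. COX7A2L had 52 counts on ENST00000378669.1 in the first vector control library and 2298, 3064 and 3395 in the others, and this transcript led in all 4 libraries. Replicates of 1 group stood over 4-fold apart in CPM in 4 tested members (5.06%, against 8.3% of all tested genes), namely COX7A2L, NDUFB5, ATP5SL and the second identifier of NDUFA7.

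**Figure D5:**
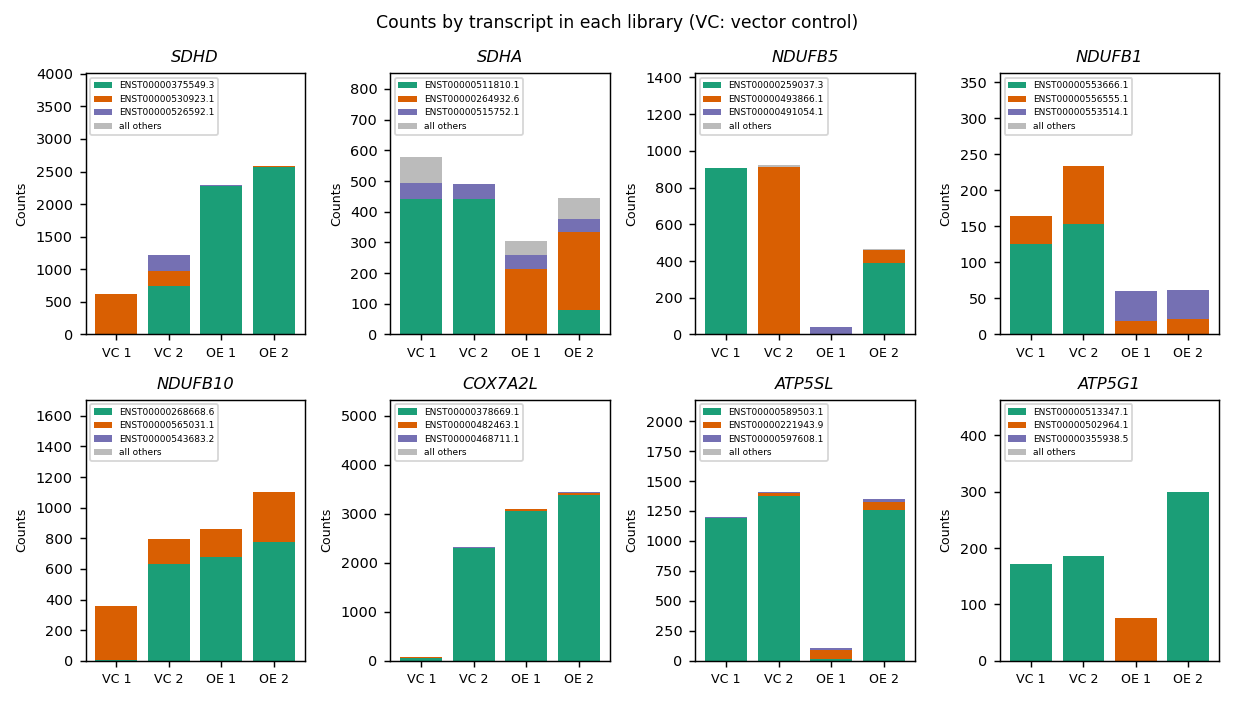
Counts (y axis, from 0) of the leading 3 transcripts and of all others for 8 members in each of the 4 libraries. The leading transcript of NDUFB5 differs between the vector control libraries, that of NDUFB1 and SDHA differs between the groups, and COX7A2L and ATP5SL have 1 library with few counts (80 and 105).

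The 13 subunits encoded by mitochondrial DNA were counted at a summed 55539 and 56359 CPM in the vector control and 48407 and 48942 CPM in OE, against 1465 to 1740 CPM for the nuclear members. All 13 had a log2 fold change below 0 (median -0.18), and in 12 both OE libraries lay below both controls, as in 27.6% of all tested genes. MT-ND5 was at -0.41 ± 0.04 and MT-ND6 at -0.49 ± 0.05, and 10 of the 13 were lower at an unadjusted p under 0.05, against 10.7% of all tested genes. DESeq2 called 10 lower at an adjusted p under 0.05, against 10.5% of all tested genes, and edgeR called none (0.0584 for MT-ND5). These genes share a library fraction, so their values are not independent of each other.

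A list of carriers, subunits and related factors that the symbol rule leaves out had 15 tested genes and a median log2 fold change of 0.13. It holds UQCC1, UQCC2 and COA3, which are assembly factors and stand in the list for complexes II to V as well. edgeR called 0 of the 15, and 3 had an unadjusted p under 0.05 (20.8% of all tested genes did), as many as DESeq2 called (19.8% of all tested genes). UQCC2 is 1 of these 3 in both counts and is counted again among the assembly factors. USMG5, a small ATP synthase subunit, had 139 and 153 counts in the control libraries and 340 and 415 in OE (1.16 ± 0.14, edgeR adjusted p = 0.0707), and CYCS, cytochrome c, had 3199 and 3316 against 4330 and 5027 (0.31 ± 0.07, adjusted p = 0.128). The 14 complex I assembly factors had a median of 0.03 and the 32 tested assembly factors of complexes II to V a median of 0.05. In both lists 0 genes passed the edgeR test. At an unadjusted p under 0.05, there were 2 and 6 genes, and DESeq2 called 2 and 6 at an adjusted p under 0.05, against 20.8% and 19.8% of all tested genes. TMEM70 stands in both lists. NDUFAF4 (0.58 ± 0.10) and NDUFAF6 (0.62 ± 0.14) were higher in both OE libraries than in both controls. LYRM7, which helps to insert the Rieske protein into complex III, was higher (0.60 ± 0.10), and COX19, a copper-handling factor of complex IV, was lower (-0.54 ± 0.08), also without passing.

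The transcriptional regulators of respiratory genes were close to even, with a median of 0.14 over 13 genes, 0 of them with an unadjusted p under 0.05 and 0 called by DESeq2 at an adjusted 0.05. NRF1, a factor that binds many promoters of these genes, had 378 and 447 counts against 308 and 402 (-0.43 ± 0.15), and GABPA had 1321 and 1314 against 1254 and 1461 (-0.16 ± 0.08). TFAM, which packages and transcribes mitochondrial DNA, had 1757 and 1622 against 2110 and 2763 (0.31 ± 0.11). ESRRA had 1805 and 2161 against 2726 and 2562 (0.22 ± 0.16), and the coactivator PPARGC1A had 38 and 0 against 24 and 65. The 14 tricarboxylic acid cycle enzymes had a median of -0.13, with 3 at an unadjusted p under 0.05, 3 called by DESeq2 and 0 by edgeR, against 20.8%, 19.8% and 0.594% of all tested genes. IDH2 had the smallest p of them (-0.50 ± 0.11, edgeR adjusted p = 0.128).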

How the data were processed

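RNA of 2 vector control and 2 OE libraries was sequenced after TruSeq preparation. The authors deposited raw counts for each transcript, not normalized. Per the study's methods, reads were checked with FastQC, trimmed with Trimmomatic and mapped to hg19 with Bowtie2. The submitters' processing notes name Bowtie2 2.0.4, Picard 2.21.6, StringTie 2.1.6 and DESeq2. The annotation release, the counting settings and the use of strand are not given in the sources used here. Reads of overlapping genes may therefore be mixed, and 44 tested members overlap exons of another gene. A mapper without spliced alignment and the handling of reads that fit several loci can affect the counts of members with copies, which was not tested.

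Counts were summed per gene identifier. edgeR 4.0.16 (TMM, filterByExpr, quasi-likelihood test, Benjamini-Hochberg adjustment over 20528 genes) was the main test in R 4.3.3, and DESeq2 1.42.0 and limma-voom 3.58.1 were alternatives. CPM are counts per 1e6 TMM-scaled counts, and levels per kilobase divide each transcript by its annotated length, which was lacking for COX6B1 and most counts of COX7B. Overlap of groups was judged on CPM. Fits were tested on simulated data. Their dispersion was set lower than the common dispersion of these libraries (0.122). That check therefore does not show how many true changes would be found here. Library totals are given with the results.

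Members and gene lists were chosen with earlier results of these data known. Named genes are the 2 members of each complex with the highest level per kilobase, those with the smallest p in each direction, those past the study's thresholds, isoform pairs, untested members, non-subunits and members with replicates over 4-fold apart. Members of the main modules, transcript and copy examples were named after their values were seen, as was the list of copies. Some genes are not reported here.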

Additional observations from a re-analysis of the deposited data

How the results depend on the processing

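The count of members with an adjusted p under 0.05 was 0 in edgeR, 13 in DESeq2 (4 higher and 9 lower in OE, against 9.32% and 10.5% of all tested genes) and 1 in limma-voom (the second identifier of UQCR11, against 1.46%), and 13 at an unadjusted p under 0.05. At the study's thresholds it was 0 in edgeR and 7 in DESeq2. Leaving out each library in turn gave a median log2 fold change of -0.107 to 0.0615. It gave 21 to 35 members above and 21 to 37 below every control library kept, against 18 and 19 with all libraries. Fewer libraries leave less room for overlap in any gene. The shares of all tested genes were not counted in these fits, so the rise is not given as a trait of the members. The log2 ratios of the summed level were 0.18 to 0.41 for complex II, -0.28 to -0.15 for complex III and 0.045 to 0.75 for complex IV. With a library left out, its group rests on 1 library that is assumed to vary like the other group. With copies added, the ratio of complex III was -0.10. Without SDHD, a choice made after seeing the data, the ratio of complex II was -0.17.

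Replicate numbers did not pair the libraries (correlation of deviations -0.0152), and the fit with the number as a replicate block left 0 members with an adjusted p under 0.05. Of 29 named members under 15 alternatives each (435 values), 404 kept direction and side of the threshold, 14 passed it in another fit (12 of them under DESeq2), and 17 changed sign. NDUFB11 ranged from -0.15 to 0.31 without 1 library (-0.02 without the first vector control library) and was -0.0099 and -0.0098 with named or all copies added. SDHB ranged from -0.23 to 0.34 (-0.18 without the second OE library), SDHC from -0.15 to 0.010, UQCR10 from -0.083 to 0.55 (-0.02 without the first OE library) and ATP5D from -0.14 to 0.20. On the leading transcript SDHB was -0.062 and ATP5D -0.013. With copies added UQCRH was 0.016, COX7A2 -0.014 (named or all) and ATP5C1 -0.21. The cause was not tested. How precision varies with a member's count was not tested; the median member had 319 counts per library.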
